A study of Mus musculus with 24 samples.

Results

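The 10 genes described here encode the Myc and Max network of transcription factors: Myc, Mycn, Mycl, Max, Mxd1, Mxd3, Mxd4, Mxi1, Mnt and Mga. Their members in the data were the ATAC-seq intervals that overlapped each gene body extended by 20 kb on both sides (GRCm38.p6 gene table). This gave 204 of 299780 intervals in the table of untreated cells and 195 of 272268 in the table of inhibitor-treated cells, and no interval lay in the windows of more than 1 of the 10 genes. ATAC-seq reads out where the Tn5 transposase can insert adapters, so the values are chromatin accessibility and not RNA or protein.

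E14, a mouse embryonic stem cell line, was grown on gelatin in serum with LIF. The lines were WT, Smad2_KO1 and Smad2_KO2, where KO denotes a knockout of Smad2, a signal transducer of the Nodal branch of TGF-beta signalling. Each line was left untreated (Ctrl) or given 200 nM of the mTOR inhibitor INK128 for 12 h (Paused), a treatment used to model developmental pausing. The 6 groups had 4 libraries each, from 50000 cells per library.

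Myc, Mycn and Mycl proteins bind DNA as heterodimers with Max and activate genes of growth, ribosome production and metabolism. The Mxd proteins, Mxi1 and Mnt compete for Max and recruit the Sin3 corepressor, and Mga joins Max to a Polycomb complex. In mouse embryonic stem cells Myc and Mycn are known for supporting self-renewal and biosynthesis, and loss of both was described as placing the cells in a pause-like state.

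Promoter sequence is shown for 3 genes because these promoters carry letters known to matter for the network: E2F-type letters in Mycn, a gene whose surroundings differed between lines, and the Myc and Max E-box in the antagonists Mxd4 and Mnt. Each line gives the 250 bases before the RefSeq start (GRCm38.p6), 5' to 3' on the gene's strand, with the matched letters in capitals.
Mycn, chr12:12941837-12942086, minus strand: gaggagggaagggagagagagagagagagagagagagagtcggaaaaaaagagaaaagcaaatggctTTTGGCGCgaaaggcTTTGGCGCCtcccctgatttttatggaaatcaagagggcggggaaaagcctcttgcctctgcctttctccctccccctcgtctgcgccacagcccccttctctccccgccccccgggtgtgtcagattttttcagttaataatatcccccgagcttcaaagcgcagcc
Mxd4, chr5:34187711-34187960, minus strand: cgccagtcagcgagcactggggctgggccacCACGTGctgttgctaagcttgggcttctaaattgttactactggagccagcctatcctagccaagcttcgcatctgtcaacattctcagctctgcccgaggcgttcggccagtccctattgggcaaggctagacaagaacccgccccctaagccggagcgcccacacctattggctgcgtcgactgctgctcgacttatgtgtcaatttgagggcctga
Mnt, chr11:74830674-74830923, plus strand: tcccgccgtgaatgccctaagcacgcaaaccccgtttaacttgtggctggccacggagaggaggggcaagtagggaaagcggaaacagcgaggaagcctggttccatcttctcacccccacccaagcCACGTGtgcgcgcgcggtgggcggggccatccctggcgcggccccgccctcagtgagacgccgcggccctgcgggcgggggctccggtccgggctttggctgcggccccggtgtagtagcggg
4 motifs were searched on both strands of 11 member promoters, which belong to 9 of the genes. Myc had no entry among the RefSeq promoters used, so its promoter was not searched. CACGTG, the E-box bound by Myc with Max and by the Max partners, was present in 6.02% of 32851 RefSeq promoters of this length and in 2 of the 11 member promoters, those of Mxd4 and Mnt. TTTGGCGC, of the E2F type, was present in 0.417% of all promoters and occurred at 2 places in Mycn, at 183 to 176 and 168 to 161 bases before the start. The second of these overlaps a GGCGCC, a sequence that Smad proteins can bind, which was present in 9.59% of all promoters and in 4 of the 11 member promoters (Mycn, Max and 2 of Mxi1). The Smad palindrome GTCTAGAC was in none of the 11 and in 0.167% of all. A match describes letters and not binding.

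Recovered reads in intervals ran from 11.46 to 20.01 M per library, and all 4 Paused Smad2_KO1 libraries were deeper than all 4 Paused WT libraries. Same-numbered Smad2_KO1 and Smad2_KO2 libraries were close to each other. The chi-square per degree of freedom of their counts was 1.001 to 1.074 in Paused and 1.016 to 1.27 in Ctrl. Between WT libraries it was 1.212 to 1.916. Within Smad2_KO1 it was 1.176 to 1.394 in Paused and 1.11 to 1.427 in Ctrl. Within Smad2_KO2 it was 1.111 to 1.48 and 1.16 to 1.338. In Paused, same-numbered libraries of the knockout lines were thus closer than any libraries of 1 line. The Paused pair of replicate 2, at 1.001, differed by no more than sampling noise, so counts are also given with same-numbered knockout libraries averaged into 4. Averages give 1 contrast against WT, so a call there does not require both knockout lines. The contrasts of both knockout lines use the same WT libraries, so a call in both does not rest on independent results. The labels do not say that replicates were separate cultures, so p-values measure the spread between these libraries. Of the 7 embryonic stem cell markers, 7 had an interval near their start in Ctrl and 6 in Paused, and their sum was 1628 in WT against 1693 and 1697 (Ctrl) and 1696 against 1628 and 1619 (Paused). The summed value of the 4 fibroblast markers was 473 in WT against 400 and 406 in Smad2_KO1 and Smad2_KO2 (Ctrl), and 669 against 532 and 546 (Paused); its part in the results was not tested. All 3 primitive endoderm markers summed to 590 in WT against 557 and 564 in Ctrl and to 736 against 673 and 675 in Paused. The trophoblast markers, 2 of 3 with an interval in Ctrl and 3 in Paused, summed to 229 against 208 and 220 and to 301 against 272 and 271. The interval most accessible at Smad2 itself overlapped between lines in both tables, and 0 of 7 intervals inside Smad2 were called in Ctrl and 2 of 11 in Paused; accessibility does not read out the gene product. In these bulk libraries, fewer cells with an open site and less opening per cell cannot be told apart.

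Accessibility around Myc and Mycn was lower in both Smad2 knockout lines, with and without the inhibitor, while the other 8 windows showed no difference called in both lines. The measure is the sum of normalized reads over all intervals of a window in 1 library, tested by limma on the log2(sum + 1) scale across all protein-coding genes, with Benjamini-Hochberg adjusted p-values; a window or interval counts as called when the adjusted p is under 0.05 in both knockout lines with the same sign.

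**Figure D1:**
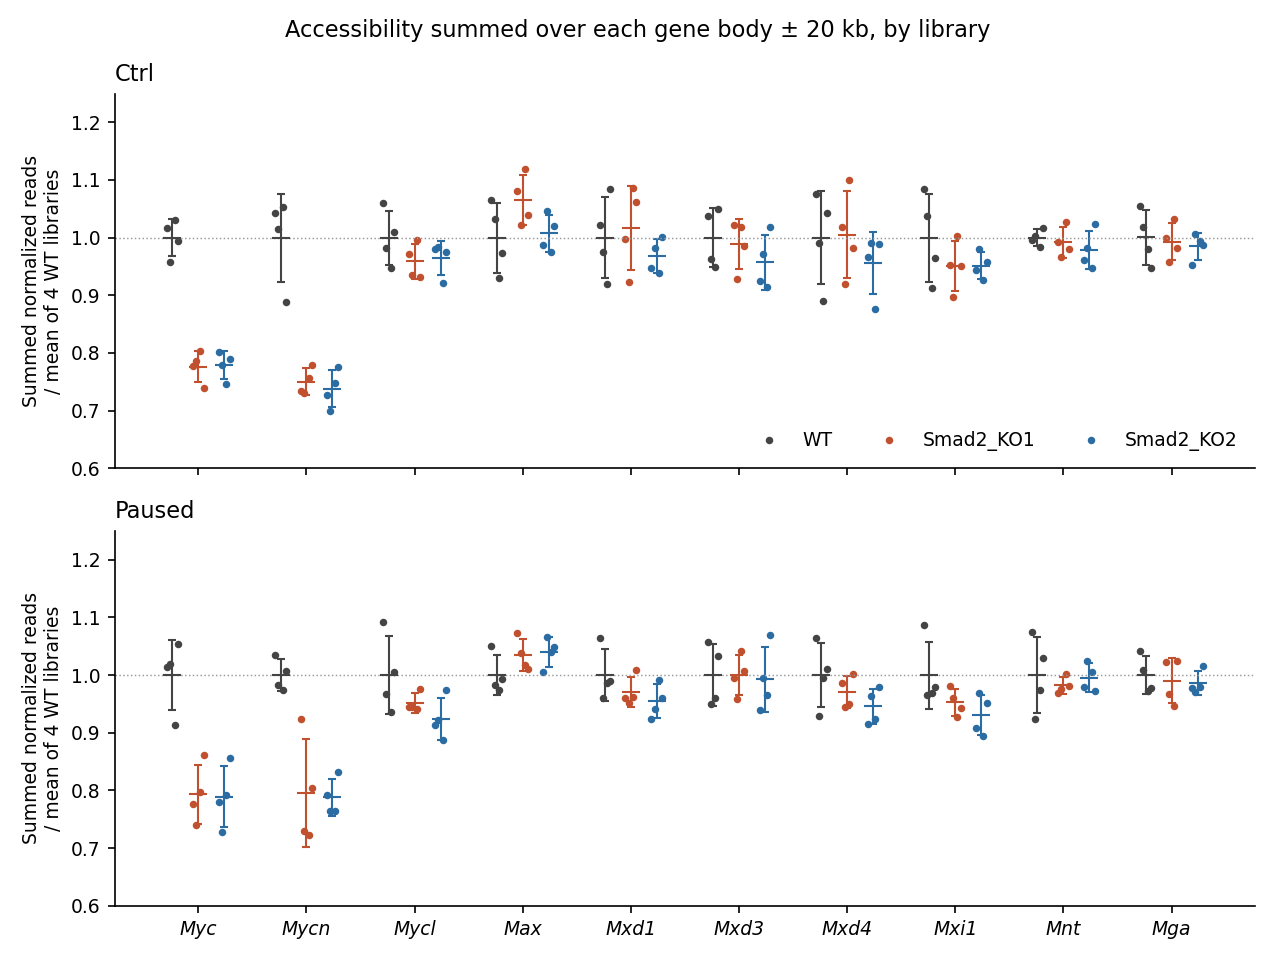
Summed normalized reads per library over each gene body with 20 kb on either side, divided by the mean of the 4 WT libraries of the same treatment (y axis), for the 10 genes (x axis), with each point a library, the dash the mean and the bar the SD (n = 4). At Myc and Mycn all 8 knockout libraries lie below all 4 WT libraries in both panels, and at the other 8 genes the lines overlap.

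Myc (chr15:61985341-61990361) encodes the founding activator of the network. In Ctrl its window summed to 965, 908, 977 and 943 normalized reads in the WT libraries, to 737, 745, 761 and 700 in Smad2_KO1, and to 760, 739, 708 and 749 in Smad2_KO2. All 8 knockout libraries were below the lowest WT library. The log2 fold change was -0.36 in Smad2_KO1 (SE 0.058, limma adjusted p = 1.37e-05) and -0.36 in Smad2_KO2 (SE 0.058, adjusted p = 1.74e-05), about 22% lower in each line. In Paused the WT libraries summed to 997, 1003, 898 and 1036, the Smad2_KO1 libraries to 763, 727, 783 and 846, and the Smad2_KO2 libraries to 767, 715, 779 and 842. The groups again did not overlap, with log2 fold changes of -0.33 (SE 0.058, limma adjusted p = 3.71e-05) and -0.34 (SE 0.058, adjusted p = 2.45e-05). With the flank reduced to 0, which left 1 interval in Ctrl, the Ctrl value was 0.07 and not called.

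Mycn (chr12:12936093-12941836), the paralogue prominent in embryonic cells, gave the same direction. In Ctrl its window summed to 1066, 1037, 1075 and 908 in WT, to 751, 746, 773 and 797 in Smad2_KO1, and to 744, 714, 765 and 792 in Smad2_KO2. No knockout library reached the lowest WT library. The log2 fold changes were -0.41 (SE 0.06, limma adjusted p = 2.82e-06) and -0.44 (SE 0.06, adjusted p = 8.32e-07). In Paused the sums were 911, 865, 858 and 886 in WT, 813, 643, 636 and 708 in Smad2_KO1, and 697, 672, 672 and 732 in Smad2_KO2. Smad2_KO1 replicate 1 was the knockout library nearest to WT. The Paused log2 fold changes were -0.34 (SE 0.061, limma adjusted p = 7.1e-05) and -0.34 (SE 0.061, adjusted p = 4.54e-05). With a flank of 0 the Paused value was -0.25 and not called (larger limma adjusted p = 0.233). In Ctrl that flank left 0 intervals, so the window was not tested.

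At the other 8 genes the lines overlapped in both tables. In Ctrl the log2 fold changes of their windows ran from -0.07 at Mxi1 to 0.09 at Max in Smad2_KO1, and the Max window, which also reaches Fntb, averaged 1914 in WT against 2039 and 1929. In Paused the nearest to a call were Mxi1, 2688 in WT against 2561 and 2502 (limma adjusted p = 0.205 and 0.0491), and Mycl, 1795 against 1708 and 1659 (0.243 and 0.0505). The Mga window averaged 1535 in WT against 1524 and 1512 in Ctrl. The windows of these 8 genes also reach other protein-coding genes, such as Trit1 at Mycl, Nsd1 at Mxd3 and Sgsm2 at Mnt, whereas those of Myc and Mycn reach none. With size or TMM factors the Max window was called higher in Paused, at a mean of 0.10. The Mxi1 window was called lower in Ctrl with a flank of 50 kb, at -0.14, and in Paused with the 8 knockout libraries as 1 group, at -0.09. With a flank of 0 the Mxd1 and Mxd4 windows were called higher in Paused, that of Mxd4 from 1 interval.

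Such calls were not rare over the genome. In Ctrl 8.35% of 20388 windows were called, 3.35% as higher and 5% as lower, and in Paused 27.1% of 20236, 6.59% as higher and 20.5% as lower. The mean change of the 2 knockout lines at Myc was matched or exceeded downward by 1.49% of windows in Ctrl and 1.85% in Paused, and that at Mycn by 0.902% and 1.81%. Without overlap and lower lay 6.25% of all windows in Ctrl and 13.9% in Paused. Both genes stayed called when each library was left out in turn, when same-numbered knockout libraries were averaged, and under DESeq2 size factors and TMM factors, settings under which the share of called windows that were higher moved from 40.1% to 51.2% and 48.8% in Ctrl and from 24.3% to 49.7% and 48.7% in Paused.

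Farther from both genes the medians were near 0. From 20 kb to 1 Mb around the Myc gene body, the median log2 fold change was -0.05 and -0.06 over 139 Ctrl intervals and 0.02 and -0.02 over 118 Paused intervals (Smad2_KO1 and Smad2_KO2). Around Mycn it was 0.04 and -0.01 over 198 Ctrl intervals and 0.03 and 0.03 over 176 Paused intervals. Calls did occur there. Around Myc 12.2% were called in Ctrl (7 higher, 10 lower) and 17.8% in Paused (9 and 12), against 7.14% and 13.9% of chromosome 15. Around Mycn they were 8.08% (6 and 10) and 13.6% (11 and 13), against 6.95% and 14.1% of chromosome 12. Over both chromosomes more calls were higher than lower. Within the windows themselves, the 24 tested intervals of both genes had medians of -0.46 and -0.42 in Ctrl and -0.29 and -0.27 in Paused, against 0.08 and 0.07 (Ctrl) and 0.12 and 0.11 (Paused) over all tested intervals.

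At the level of single intervals, 22 of the 196 tested member intervals were called in Ctrl, 7 higher and 15 lower in the knockouts, or 11.2% against 7.15% of all tested intervals (3.95% higher, 3.2% lower). In Paused 24 of 192 were called, 16 higher and 8 lower, or 12.5% against 13.9% of all (9.01% higher, 4.92% lower), a share close to the background. Myc and Mycn held 11 of the 15 lower calls in Ctrl and 6 of the 8 in Paused, and no higher call. The other 8 genes had 7 higher and 4 lower calls among 172 intervals in Ctrl, and 16 higher and 2 lower among 168 in Paused. All 46 calls pass the false discovery rate of 0.05 with the same sign in the authors' deposited table. That contrast sets the same 8 knockout libraries against the same 4 WT libraries, so it is not independent support. It passes 28 member intervals in Ctrl and 43 in Paused, and 12.2% and 21.6% of all intervals. No member interval was called between Smad2_KO1 and Smad2_KO2 by limma (7 and 5 at an unadjusted p under 0.05 in Ctrl and Paused). The same held for all tested intervals, with 0 of 282089 called in Ctrl and 0 of 260539 in Paused.

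The balance of higher and lower calls depended on the scaling between libraries. With DESeq2 size factors the member calls were 3 higher and 16 lower in Ctrl and 11 higher and 23 lower in Paused; with TMM factors they were 3 and 16, and 12 and 22. Over all intervals the higher share of calls moved from 55.2% to 37.4% and 39.1% in Ctrl and from 64.7% to 41% and 43.7% in Paused. All 17 lower calls at Myc and Mycn kept their call under both factors, but 4 of the 11 in Ctrl and 4 of the 6 in Paused did so without any 1 library, and 10 and 5 with DESeq2 on recovered reads. At the other genes 3 of the 7 higher Ctrl calls and 11 of the 16 higher Paused calls were kept with size factors. Over all members, 8 of 22 Ctrl calls and 10 of 24 Paused calls held whichever library was left out. With same-numbered knockout libraries averaged, 28 member intervals were called in Ctrl and 35 in Paused, by 1 contrast and not by a call in both knockout lines. The share of all intervals rose as well, to 13.0% and 19.8%. The fold change also moved with the level: the median over all intervals fell from 0.23 in the lowest Ctrl decile of mean value to -0.06 in the highest (Smad2_KO1), and from 0.36 to -0.13 in Paused. Of the 16 higher Paused calls at members, 14 had a mean under 50 normalized reads.

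**Figure D2:**
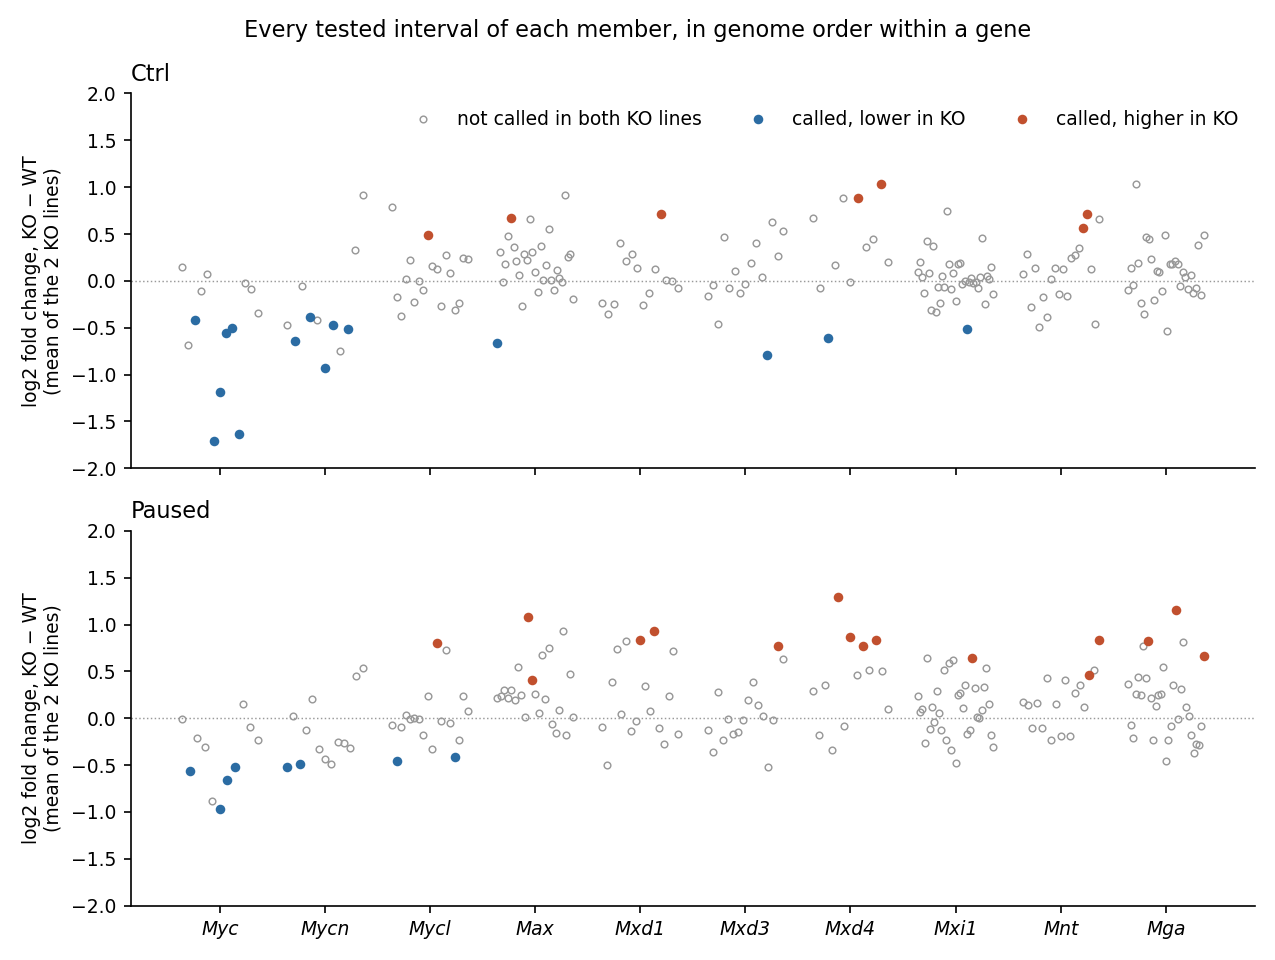
Each point is a tested interval, placed in genome order within its gene (x axis), with the mean log2 fold change of the 2 knockout lines against WT (y axis), Ctrl above and Paused below. Blue and red points were called lower or higher in both knockout lines; Myc and Mycn hold blue calls only, and the Paused panel holds 16 red calls, all at other genes.

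Myc had 6 called intervals in Ctrl and 4 in Paused, all lower in the knockouts and all outside the gene body. The strongest by p-value, chr15:61991936-61992136 on the higher-coordinate side of the gene, held 49.1, 38.5, 69.0 and 60.4 normalized reads in WT, 21.4, 25.7, 18.7 and 19.6 in Smad2_KO1, and 27.1, 28.2, 15.9 and 28.2 in Smad2_KO2 (Ctrl). The highest knockout library stayed below the lowest WT library, and the log2 fold changes were -1.28 (SE 0.205, limma adjusted p = 2.35e-05) and -1.10 (SE 0.205, adjusted p = 0.000231). Its Paused match, chr15:61991930-61992130, held 31.3, 24.7, 44.2 and 49.0 in WT, 13.3, 19.9, 20.7 and 22.8 in Smad2_KO1, and 17.0, 13.5, 19.1 and 19.7 in Smad2_KO2, again without overlap (log2 fold changes -0.90 and -1.03, limma adjusted p = 0.00524 and 0.00167).

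A neighbouring Ctrl interval, chr15:61991027-61991227, had 21.4, 18.8, 33.95 and 28.0 normalized reads in WT and 3.47 to 12.7 in the 8 knockout libraries (log2 fold changes -1.91 and -1.50, limma adjusted p = 7.23e-05 and 0.00156). Farther out, chr15:61998856-61999056 had 13.9, 10.8, 26.3 and 27.0 in WT and 2.73 to 7.69 in the knockouts (-1.41 and -1.87), a low-level interval whose call was lost without WT replicate 3 or without WT replicate 4. These 2 were the intervals with the steepest loss at Myc. The WT libraries themselves spread widely there, with replicates 3 and 4 above replicates 1 and 2. Without WT replicates 3 and 4, a setting chosen after seeing the data, both lost their Ctrl call. So did the Paused call at chr15:61991930-61992130. In Paused the match of the first was lower without overlap (mean log2 fold change -0.88) but not called, and the second had no match.

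2 more accessible intervals lay between them. In Ctrl, chr15:61993255-61993455 went from a WT mean of 122 to 87.8 and 75.0 (Smad2_KO1 and Smad2_KO2), and chr15:61994891-61995091 from 135 to 97.9 and 92.4. Both were called in both tables, with Paused log2 fold changes of -0.61 and -0.70 at the first and -0.48 and -0.55 at the second. The first lost its Ctrl call without WT replicate 2 or 3 or without Smad2_KO1 replicate 1 or 2, and the second without Smad2_KO1 replicate 1 in Ctrl and replicate 2 in Paused. The sixth Ctrl call, on the lower-coordinate side, had a larger adjusted p of 0.0474 by limma, was lost without any 1 of 9 of the 12 libraries, and matched the Paused interval chr15:61978989-61979189 (-0.60 and -0.54), which stayed called under every setting run.

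The interval over the lower-coordinate end of the Myc gene body, where transcription begins, was not called. In Paused, chr15:61985311-61985511 held 456, 418, 377 and 424 normalized reads in WT, 341, 333, 368 and 406 in Smad2_KO1, and 354, 343, 361 and 384 in Smad2_KO2. The lines overlapped, with log2 fold changes of -0.21 and -0.21 and limma adjusted p = 0.0697 and 0.0661. It was called under 6 of 25 other settings, among them size factors, at a mean of -0.31 and a larger adjusted p of 0.0161 by limma. In the authors' deposited contrast its log2 fold change was -0.201 at a false discovery rate of 0.0137. The Paused Myc window with a flank of 0, which holds only this interval, stayed called. The Ctrl table as used here has no match for it; the interval within the gene there, chr15:61986023-61986223, averaged 27.2 in WT and 28.2 and 28.3 in the knockout lines.

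**Figure D3:**
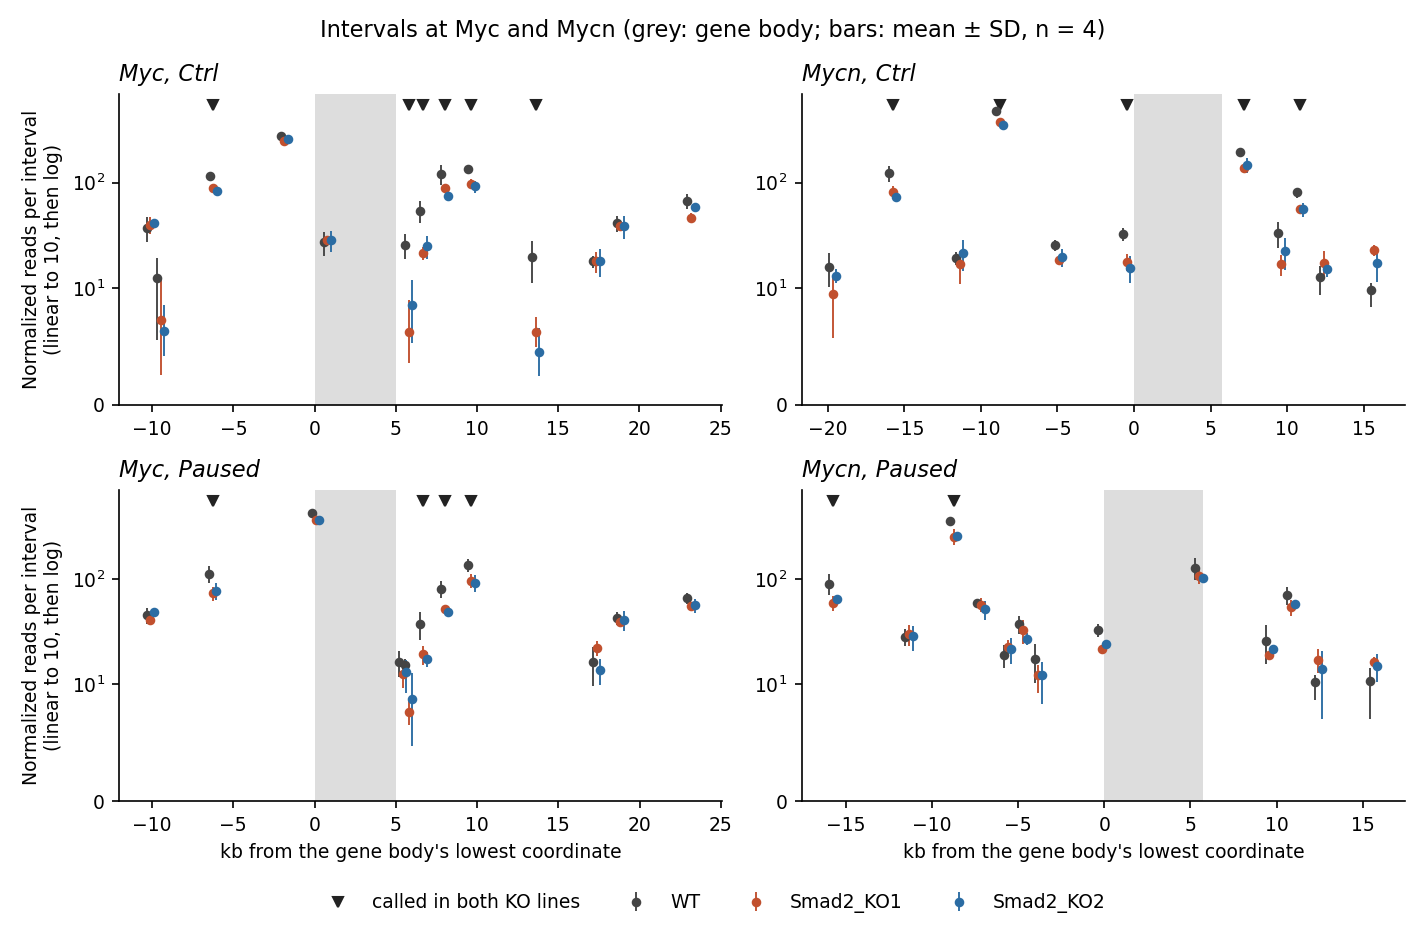
Mean normalized reads of every interval in the windows of Myc and Mycn (y axis, linear up to 10 and logarithmic above) against the distance of its centre from the lowest coordinate of the gene body (x axis, kb), by line, with bars of ± SD (n = 4) and the gene body in grey. Triangles mark intervals called in both knockout lines; all lie outside the gene bodies, with 6 at Myc and 5 at Mycn in Ctrl and 4 and 2 in Paused.

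Mycn lies on the minus strand, so lower coordinates are beyond its 3' end. Its most accessible interval, chr12:12927215-12927415 on that side, held 477, 466, 513 and 440 normalized reads in WT, 368, 342, 395 and 385 in Smad2_KO1, and 345, 344, 367 and 359 in Smad2_KO2 (Ctrl). No knockout library overlapped WT, and the log2 fold changes were -0.35 (SE 0.083, limma adjusted p = 0.00366) and -0.42 (SE 0.083, adjusted p = 0.000466). Its Paused match held 321, 352, 361 and 377 in WT and 210 to 292 in the knockouts, with -0.50 and -0.48 (limma adjusted p = 0.000542 and 0.00081). The call was made in both tables under every setting run.

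A second interval on that side, chr12:12920225-12920425, averaged 122 in WT, 81.7 in Smad2_KO1 and 73.3 in Smad2_KO2 in Ctrl (limma adjusted p = 0.00343 and 0.000256). It was called in Paused too (limma adjusted p = 0.00441 and 0.0285), where the call was lost without WT replicate 1 or 4 or without Smad2_KO2 replicate 2 or 4. 3 intervals were called in Ctrl only: chr12:12935504-12935704, 32.1 in WT against 17.8 and 15.5; chr12:12943143-12943343, upstream of the start, 196 against 137 and 146; and chr12:12946832-12947032, 80.5 against 56.2 and 55.8. The first and second have no matched Paused interval, so they were not tested there. The match of the third was not called in Paused, at a mean log2 fold change of -0.32. Whether the 3 intervals differ between treatments was not tested. Each lost its call without at least 1 library: the first without Smad2_KO1 replicate 3, the second without Smad2_KO2 replicate 2, and the third without WT replicate 2, Smad2_KO1 replicate 1 or Smad2_KO2 replicate 2 or 4.

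The Mycn start itself had an interval in Paused, chr12:12941484-12941684, next to the promoter printed above. It held 162, 111, 94.9 and 139 normalized reads in WT, 130, 101, 107 and 88.4 in Smad2_KO1, and 112, 89.2, 108 and 101 in Smad2_KO2. The lines overlapped and it was not called (limma adjusted p = 0.237 and 0.141).

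Mycl (chr4:122995588-123002490), the third activator, showed calls in both directions. In Ctrl, chr4:123001007-123001207 inside the gene rose from 69.4 in WT to 105 and 91.9. In Paused, chr4:122983554-122983754 and chr4:123013977-123014177 fell, from 146 to 109 and 105 and from 87.5 to 64.1 and 66.7, and chr4:123003675-123003875 rose from 10.5 to 20.9 and 17.5. All 4 had a larger adjusted p of 0.02 to 0.0491 by limma and lost their call without any 1 of 4 to 12 of the 12 libraries. The start interval did not part the lines in either table (Ctrl 289 in WT against 289 and 290).

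Max (chr12:76937269-76962323), the shared dimer partner, had 1 lower and 1 higher call in Ctrl and 2 higher in Paused. The lower one, chr12:76918833-76919033, averaged 68.1 in WT against 47.3 and 39.1 in the knockout lines and lost its call without WT replicate 1 or without Smad2_KO1 replicate 1 or 4. The higher Ctrl one, chr12:76929200-76929400, averaged 15.9 against 26.4 and 25.7. In Paused chr12:76937794-76937994 rose from 9.26 to 19.7 and 22.0 and chr12:76939474-76939674 from 74.8 to 102 and 96.3. The first Paused call was lost without Smad2_KO1 replicate 3, the second without any 1 of 5 libraries and with size factors, and the higher Ctrl call without any 1 of 8. The Max start interval held 656 to 803 normalized reads in WT and 641 to 859 in the knockouts (Ctrl), overlapping fully.

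The antagonists of the Mxd family and Mnt had 8 calls among 95 intervals in Ctrl, 5 higher and 3 lower, and 10 among 96 in Paused, all higher. The Paused direction follows that of all intervals, of which 9.01% were higher and 4.92% lower, and 9 of the 10 had a mean under 50 normalized reads. The window of Mxd1 (chr6:86647044-86669234), an antagonist linked to differentiation, held chr6:86667193-86667393, higher in both tables: 18.4 in WT against 30.5 and 32.7 in Ctrl, and 27.0 against 49.6 and 51.7 in Paused. It lost its Ctrl call with size factors and without any 1 of 7 libraries, but kept its Paused call under every setting run. Inside Mxd1, chr6:86656472-86656672 rose from 13.2 to 22.7 and 23.2 in Paused, a call lost without WT replicate 1 or Smad2_KO2 replicate 3. The Mxd1 start interval, among the most accessible of all members, averaged 696 in WT against 723 and 676 in Ctrl and 805 against 753 and 737 in Paused, with overlapping lines.

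At Mnt (chr11:74830806-74845725), a Max partner expressed in dividing and resting cells alike, chr11:74857847-74858047 was higher in both tables. In Ctrl it held 58.8, 90.5, 50.4 and 42.1 in WT and 90.5 to 104 in the knockouts, where WT replicate 2 came level with the lowest knockout library (log2 fold changes 0.74 and 0.70, limma adjusted p = 0.000611 and 0.0013). In Paused it rose from 84.6 to 119 and 115, a call lost without Smad2_KO2 replicate 2. A second Mnt interval in Paused, chr11:74863646-74863846, rose from 26.3 to 48.7 and 46.8 with no overlap and under every setting run, and a Ctrl one, chr11:74855467-74855667, had 26.5 against 39.0 and 39.9 and was lost without any 1 of 9 libraries.

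Mxd4 (chr5:34176580-34187710), an antagonist of the Mad family, had 3 Ctrl and 4 Paused calls. The lower Ctrl interval chr5:34175384-34175584 held 129, 110, 124 and 122 in WT, 81.2, 81.2, 87.2 and 75.1 in Smad2_KO1, and 81.2, 98.3, 55.2 and 79.5 in Smad2_KO2. No knockout library reached WT, and the call (limma adjusted p = 0.00348 and 0.00104) was kept under every setting run. chr5:34191055-34191255 was higher in both tables, 9.77 against 18.0 and 19.8 in Ctrl and 10.9 against 21.3 and 20.7 in Paused. It lost its Ctrl call without any 1 of 4 libraries and its Paused call without Smad2_KO2 replicate 3. The other higher calls were low intervals too, the steepest being chr5:34183297-34183497 in Paused, 10.9 against 25.7 and 25.9. In Ctrl chr5:34195965-34196165 had 6.56 against 15.6 and 13.3. In Paused chr5:34194560-34194760 had 16.4 against 28.0 and 29.0 and chr5:34196711-34196911 had 11.0 against 19.5 and 19.8. The first was lost without any 1 of 8 libraries, the last without any 1 of 7, and both with size factors. The Mxd4 start interval, over the promoter printed above, held 675 to 837 normalized reads in WT and 672 to 925 in the knockouts (Ctrl) and was not called.

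Mxd3 (chr13:55325170-55329900) and Mxi1 (chr19:53310128-53373293), also repressors through Sin3, had 1 call each per table, lower in Ctrl and higher in Paused, at different intervals. At Mxd3, chr13:55341932-55342132 fell from 56.3 to 33.6 and 30.3 in Ctrl, and chr13:55346864-55347064 rose from 31.1 to 54.1 and 51.5 in Paused. At Mxi1, chr19:53370328-53370528 fell from 164 to 108 and 120 in Ctrl, and chr19:53371613-53371813 rose from 16.7 to 26.4 and 26.6 in Paused, a call lost without any 1 of 9 libraries. The start intervals of both genes were not called; that of Mxi1 in Paused averaged 304 in WT against 262 and 256 (limma adjusted p = 0.108 and 0.0576), and that of Mxd3 275 against 274 and 268.

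Mga (chr2:119872503-119970129), the largest protein of the network, had no call in Ctrl and 3 in Paused, all higher: chr2:119883030-119883230 went from 26.8 to 45.5 and 48.3, chr2:119941304-119941504 from 5.24 to 12.5 and 12.4, and chr2:119990019-119990219 from 26.0 to 42.0 and 43.6. The last 2 lost their calls without any 1 of 5 libraries each, and the last also with size factors.

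Of the 151 intervals matched one to one between the tables, 9 were called both times with the same sign: 4 at Myc and 2 at Mycn, lower, and 1 each at Mxd1, Mxd4 and Mnt, higher. Over all matched intervals tested in Ctrl and in Paused, 4.91% were called in both with the same sign. The tables were normalized separately and share no library.

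**Figure D4:**
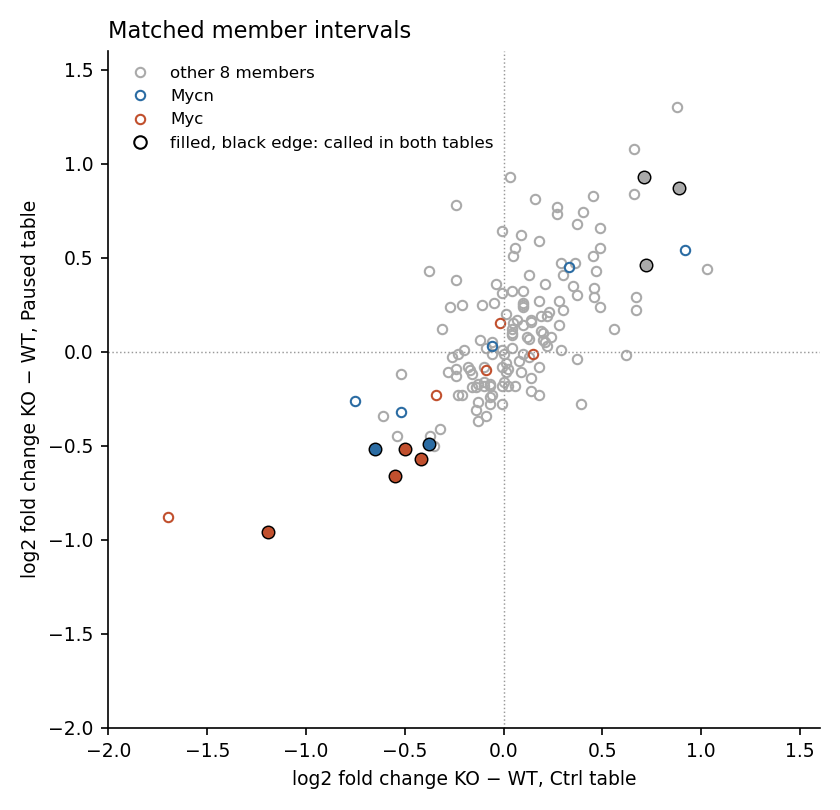
Mean log2 fold change of the 2 knockout lines against WT at matched member intervals, in the Ctrl table (x axis) and the Paused table (y axis). Filled points with a black edge were called in both tables; the 6 at Myc and Mycn lie in the lower left and the other 3 in the upper right.

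The pausing difference in WT was read from the matched intervals as the log2 of the Paused mean minus the log2 of the Ctrl mean. It is a description without a test, because the tables were scaled separately. Its median over the 151 member intervals was 0.06, and over all 215826 matched intervals 0.08. All 4 Paused WT libraries were above all 4 Ctrl WT libraries at 20 of the 151 (13.7% of all matched intervals) and below them at 13 (5.61%). Relative to the median of all matched intervals the numbers were 14 above and 15 below, against 9.69% and 7.9%, so the balance rests on the scaling. By gene the relative median ran from -0.36 at Mycn (7 matched intervals), -0.22 at Max (21) and -0.14 at Myc (9) to 0.16 at Mxd3 (9) and 0.25 at Mnt (15). The Paused intervals at the Mycn start and over the lower-coordinate end of Myc had no match and are not in these medians.

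The widest higher differences among intervals with a WT mean of 20 or more in either table, were at antagonist genes. An interval near Mxd1, chr6:86641757-86641957, held 17.1, 21.5, 15.3 and 16.2 normalized reads in Ctrl WT and 63.7, 63.3, 74.4 and 74.2 in Paused WT, a difference of 1.92. Inside Mnt, chr11:74834985-74835185 went from 32.0, 39.4, 50.4 and 42.1 to 134, 119, 108 and 119, a difference of 1.53, and inside Mxi1, chr19:53318869-53319069 went from a mean of 9.71 to 24.8 (1.27). All 3 were apart in the same direction in both knockout lines as well, with 1.76 and 1.73 at Mxd1, 1.47 and 1.64 at Mnt, and 0.80 and 0.86 at Mxi1.

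With that minimum the widest lower differences were at Max, Mycl and Mxd4; below that level, Max chr12:76972012-76972212 (16.6 to 7.11, -1.11) and Mnt chr11:74827916-74828116 (16.5 to 8.91, -0.82) were wider than some of these. chr12:76923064-76923264 near Max went from 23.3 to 11.5 (-0.96), chr4:123010875-123011075 near Mycl from 22.2 to 12.2 (-0.81), and the Mxd4 interval chr5:34175384-34175584 from 121 to 68.6 (-0.81). The WT libraries of the 2 treatments did not overlap at any of the 3. The same held in Smad2_KO1, with differences of -0.79, -0.6 and -0.63. In Smad2_KO2 the libraries did overlap at all 3, with differences of -0.51, -0.19 and -0.48. The Mxd4 interval is the one that was lower in both knockout lines without the inhibitor.

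**Figure D5:**
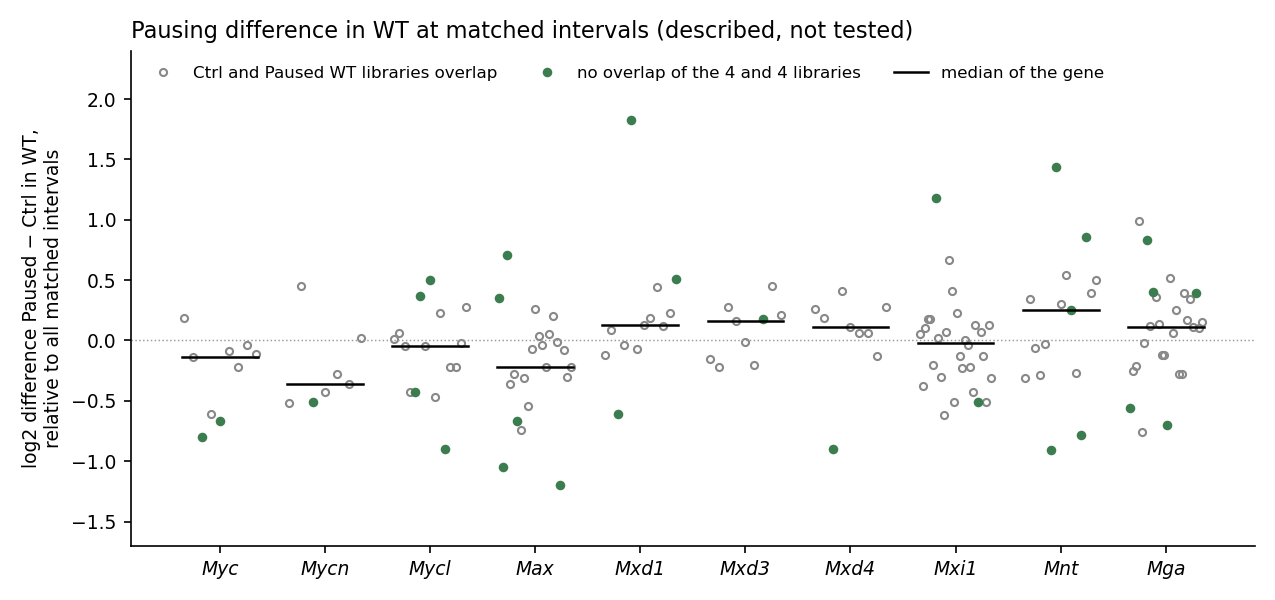
Log2 difference between Paused and Ctrl WT means at each matched interval, minus the median of all matched intervals (y axis), by gene (x axis), with the gene median as a black line. Green points mark intervals where the 4 Paused and 4 Ctrl WT libraries do not overlap; the highest point is at Mxd1, at 1.83.

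The wider network was described with 6 lists of 50 genes in all, by the same windows. In Ctrl, 2 of 62 tested intervals of the Mlx branch were called, 8 of 213 of the Myc cofactors, 5 of 151 of the Sin3 corepressor, 8 of 147 of the Polycomb partners of Mga, 11 of 208 of the Myc turnover genes and 15 of 252 of the Myc target genes, or 3.23% to 5.95% against 7.15% of all. In Paused the counts were 5 of 60, 29 of 199, 14 of 138, 15 of 147, 16 of 190 and 16 of 246, or 6.5% to 14.6% against 13.9%. By window sums, 2 of the 3 Mlx branch genes (Mlx and Mlxip) were called lower in Ctrl, with 1 of 5 Sin3 corepressor genes higher, 1 of 8 turnover genes lower and 1 of 16 target genes lower, against 8.35% of all windows. In Paused 1 of 3 Mlx branch genes was called, lower, 6 of 10 Myc cofactors (5 lower), 2 of 5 Sin3 genes (1 lower), 4 of 8 Polycomb partners (all lower), 1 of 8 turnover genes (lower) and 5 of 16 target genes (4 lower), against 27.1% of all windows. An interval inside Sin3a, the corepressor scaffold that the antagonists bind, was higher in both treatments, with a mean of 48.8 in WT against 81.7 and 75.6 in Ctrl and 58.5 against 110 and 123 in Paused. Near Cbx1 an interval fell from 55.8 to 20.2 and 24.8 (Ctrl), and near Pcgf6, the Polycomb subunit that joins Mga, one fell from 462 to 326 and 316 (Paused). Near the ribosome-biogenesis target Nop56 an interval rose from 218 to 371 and 316 (Ctrl), and near Fbl, the rRNA methyltransferase, one rose from 24.8 to 44.2 and 47.5 (Paused). The remaining intervals with the smallest larger p of their list in Ctrl were at Mlxipl, 15.3 against 33.4 and 26.4, Trrap, 58.3 against 93.7 and 95.9, and Fbxw7, 28.1 against 6.96 and 7.68. In Paused they were at Mlx, 281 against 213 and 220, Smarcb1, 20.2 against 39.5 and 40.3, and Aurka, 164 against 98.2 and 105. Those of Fbxw7 and Aurka lay 5702 and 6293 bases outside the gene body. The lines overlapped at Mlxipl, Fbxw7 and Mlx. At Fbxw7 the WT libraries ran from 10.75 to 47.45 and the knockouts from 3.19 to 12.02.

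The window sums most like those of Myc over the 12 Ctrl libraries were at Esp5, Gm44501 and Esp6 (Pearson r of 0.985, 0.984 and 0.978), and over the 12 Paused libraries at Tesk2, Ptp4a2 and Fbxw23 (0.982, 0.982 and 0.981). For Mycn they were at Sall2, Tmem63a and Lefty1 in Ctrl (0.975, 0.959 and 0.957) and at Olfr1431, Ppy and Gm44501 in Paused (0.967, 0.965 and 0.963). Myc and Mycn themselves had r of 0.918 in Ctrl and 0.848 in Paused. By r with Myc, Mycn ranked 115 of 18272 genes in Ctrl and 1705 of 18231 in Paused. By r with Mycn, Myc ranked 53 and 1260. The libraries share their line and depth across genes, so these values are a description.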

How the data were processed

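The authors deposited 1 table per treatment with 12 libraries each, and 0 columns of other samples were present. Each deposited value is a signal that the authors had made by dividing read numbers by a library-wide constant, with rounding; whole reads were recovered from it (99.7% to 100% of values). The deposited Fold is a log2 value, and each deposited p-value contrasts 8 knockout with 4 WT libraries. Per the submitters' processing notes the build was mm10 and Bowtie2 2.4.1, MACS3 3.0.3 and DiffBind 3.16.0 were used; read shifting and duplicate handling are not given in the sources used here.

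Intervals with at least 10 in at least 4 libraries were tested with limma 3.58.1 in R 4.3.3 (trend) on log2(value + 1), with line as the only factor and Benjamini-Hochberg adjustment over all intervals. The pseudocount understates changes of low intervals. Tables were matched at 50% reciprocal overlap. The scripts were tested on simulated data, with a pass limit that was lowered after a stricter one had failed; most of the smaller changes put into them were missed, so an interval that was not called may still differ. Alternatives used edgeR 4.0.16 and DESeq2 1.42.0 on recovered reads, other scalings, filters, flanks and left-out libraries. Members and lists were chosen with earlier results of these data known. Named were the start interval and up to 5 called intervals per gene and table by p-value, the 3 highest and 3 lowest pausing differences among intervals with a WT mean of 20 or more in either table, the smallest larger p per list, and the 3 most alike genes.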

Additional observations from a re-analysis of the deposited data

Results flagged for a closer look

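Of 249 groups of 4 libraries, 14 held a library farther from the other 3 than Dixon's 95% value allows; chance flags about 1 in 20 groups, or 12.4. At Myc, the Ctrl interval chr15:61991936-61992136 had 15.94 normalized reads in Smad2_KO2 replicate 3 against 27.06 to 28.21 in the others, and chr15:61994891-61995091 had 152.74 in WT replicate 1 against 127.04 to 130.77. At Mycl, the window summed to 1476.69 in Ctrl Smad2_KO2 replicate 3 (others 1560.91 to 1577.2) and to 1753.01 in Paused Smad2_KO1 replicate 4 (others 1687.9 to 1695.15), and chr4:122983554-122983754 had 141.12 in Paused Smad2_KO2 replicate 4 (others 91.89 to 94.49).

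Among the antagonists, the Paused window of Mxd1 summed to 1609.99 in Smad2_KO1 replicate 4 (others 1520.6 to 1535.86) and that of Mxi1 to 2919.92 in WT replicate 1 (others 2594.38 to 2632.79). Mxi1 had 271.72 at chr19:53330205-53330405 in Ctrl Smad2_KO2 replicate 4 (others 249.37 to 252.84) and 35.34 at chr19:53371613-53371813 in Paused Smad2_KO1 replicate 2 (others 22.46 to 23.84). Mxd4 had 20.5 at chr5:34183297-34183497 in Paused WT replicate 3 (others 7.51 to 7.95) and 820.63 at chr5:34187784-34187984 in Paused Smad2_KO1 replicate 3 (others 882.96 to 887.17). Mnt had 29.92 at chr11:74855467-74855667 in Ctrl Smad2_KO1 replicate 1 (others 41.23 to 43.18) and 24.97 at chr11:74831382-74831582 in Paused Smad2_KO2 replicate 1 (others 41.57 to 44.9). Mga had 40.79 at chr2:119883030-119883230 in Paused WT replicate 2 (others 21.19 to 22.67), the highest of 4 WT libraries at an interval called higher in the knockouts.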

How the results depend on the processing

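The 22 Ctrl and 24 Paused interval calls stood beside calls at 7.15% and 13.9% of all tested intervals. For the other settings of this section the share of all intervals is not given, so these counts do not set the members apart. With the 8 knockout libraries as 1 group the calls became 34 and 54. That setting has 1 contrast and does not require a call in both knockout lines. The calls were 14 and 13 with DESeq2 on recovered reads, and 3 and 8 with a flank of 0. With a log2 fold change required to be 1 or more in size they were 3 and 3. A flank of 50 kb gave 45 in Paused. Leaving out 1 library gave 15 to 20 in Ctrl and 15 to 30 in Paused, the lowest Paused count without Smad2_KO1 replicate 2. Chosen after seeing the data, leaving out WT replicates 3 and 4 gave 13 in Ctrl and leaving out WT replicates 1 and 2 gave 12. The 2 window calls were 2 without any 1 library in both tables. They became 0 in both with a log2 fold change of 1 or more required. With a flank of 0 only intervals on the gene bodies count. In Ctrl the Myc window was then not called (0.072), and Mycn had 0 intervals and was not tested. In Paused the Mycn window lost its call (-0.253) and the Myc window kept it. With that flank the Paused mean log2 fold change was 0.388 at Mxd1 and 1.296 at Mxd4, the latter from 1 interval. The Max start interval turned to 0.171 in Paused with loess offsets; the cause was not tested.

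The WT pausing median of 0.06 became -0.02 relative to the median of all matched intervals, -0.1 with recovered reads scaled to 1 total, 0.15 with a flank of 0 and 0.15 with a WT mean of 20 or more; it ran from 0.04 to 0.11 without 1 library, the highest without Ctrl WT replicate 2. With a replicate block, 23 Ctrl and 29 Paused intervals and 2 windows in each were called; over all pairs of lines, the deviations of same-numbered libraries had a mean correlation of 0.027 in Ctrl and 0.052 in Paused, with single pairs from -0.006 to 0.109 and from -0.007 to 0.187, so the numbers were not taken to pair the lines. The knockout lines alone were closer by number in Paused: chi-square per degree of freedom 1.001 to 1.074 for the same number against 1.099 to 1.487 for others. Depth limits low intervals most.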
